A study of Homo sapiens with 12 samples.

Results

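The 9 genes described here encode the DNA-dependent protein kinase (DNA-PK) and the other core factors of non-homologous end joining: PRKDC, XRCC5, XRCC6, LIG4, XRCC4, NHEJ1, DCLRE1C, APLF and TP53BP1. They were taken from the count table by gene symbol, and all 9 were found once among 57500 genes. Total RNA of 3 established human cancer lines was sequenced after removal of ribosomal RNA, as 12 libraries that form 4 groups of 3 biological replicates by their labels; how replicates were grown apart is not given. SW480 comes from a primary colorectal cancer and SW620 from a metastatic site of the same patient, and both were grown in DMEM with serum. PEO4 cells, from ovarian cancer, were kept in RPMI 1640 with serum, and 1 group stayed in that medium (control) while the other received TGF-β, a secreted signalling protein, at 10 ng/mL over 6 days. The series is titled around the response of primary and metastatic colorectal cancer to cediranib and to NU-7441, a small-molecule inhibitor of the DNA-PK catalytic subunit, but no library here is labelled as treated with either drug. SW480 and SW620 are 1 line each, so a difference between them is a difference between 2 lines.

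Non-homologous end joining repairs DNA double-strand breaks by ligating the ends with little or no use of a template, and it works throughout the cell cycle. The ring-shaped Ku heterodimer (Ku70 from XRCC6, Ku80 from XRCC5) slides onto an end and recruits the catalytic subunit DNA-PKcs (from PRKDC), which then tethers the ends and phosphorylates itself and its partners. The nuclease Artemis (from DCLRE1C) trims ends that cannot be joined directly, and DNA ligase IV (from LIG4), held by XRCC4 and aided by XLF (from NHEJ1), seals them. APLF is a scaffold and histone chaperone that binds Ku and XRCC4, and 53BP1 (from TP53BP1) binds the chromatin beside a break and limits the resection that would lead to homologous recombination.

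Library totals ran from 14531420 to 22028956 gene-assigned counts, and replicate 2 was the shallowest library of both SW lines. Levels are given as CPM (counts scaled to a common library size, with totals adjusted by the trimmed mean of M-values). Counts behind them ran from 10196 to 19526 per library for PRKDC and from 36 to 78 for NHEJ1, the least abundant. The labels were checked with lineage markers: CDX2, an intestinal transcription factor, lay at 15.1 to 23.3 CPM in the SW libraries and at 0.0521 to 0.167 CPM in PEO4, where a count of 3 is worth 0.150 to 0.173 CPM. PAX8, a Müllerian transcription factor, lay at 537 to 643 CPM in PEO4 and at 32.8 to 57.9 CPM in the SW libraries. Both come from longer marker lists. Of 7 ovarian markers, 5 were higher in PEO4 control than in the SW mean, at an adjusted p under 0.05 by edgeR. SOX17 was lower (log2 fold change -0.81) and FOLR1 did not pass. Of 8 colorectal markers, 5 could be tested and all 5 were lower in PEO4 control. Among all genes, 30.7% were higher and 30.2% lower. The 4 immune markers, of a cell type these cultures should lack, summed to 0.570 to 1.51 CPM in SW480, 0.916 to 6.38 in SW620, 3.65 to 4.33 in PEO4 control and 3.27 to 3.80 with TGF-β, and none was at 0 throughout a group. Among them PTPRC (the leukocyte phosphatase CD45) lay at 0.193, 2.58 and 5.10 CPM in SW620 and at 0.0568 CPM or less in SW480. Carry-over was read from 2 genes at 50 CPM or more in every PEO4 library and 3 counts or fewer in nearly every SW library. SW620 replicate 3 held 1.25% of their PEO4 level, from 42 counts whose source was not tested. The other SW libraries held 0.179% or less, where low values in most are set by that choice. Carry-over of 1.25% would make up at most 1.96% of the counts of any of the 9 genes in SW620 replicate 3. Of 6 genes of the TGF-β response, 3 rose in treated PEO4 and none fell.

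The genes lie on 7 chromosomes (GRCh38, GENCODE 29 positions). XRCC5 spans 2:216107464-216206303, NHEJ1 2:219075317-219160865 and APLF 2:68467561-68655862. XRCC6 spans 22:41621119-41664048, XRCC4 5:83077498-83353787, LIG4 13:108207439-108218368, DCLRE1C 10:14897359-14954432 and TP53BP1 15:43403061-43510728. PRKDC, LIG4, NHEJ1, DCLRE1C and TP53BP1 are on the minus strand. Of the 9 genes, 6 have a gene on the other strand that starts within 1000 bases: MCM4 beside PRKDC (2 bases between starts), ABHD13 beside LIG4 (11), DESI1 beside XRCC6 (23), MAP1A beside TP53BP1 (230), FBXO48 beside APLF (303) and TMEM167A beside XRCC4 (365).

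RefSeq promoter windows (GRCh38.p14, 250 bases before to 50 after a start) were matched for 7 of the 9 genes, all except PRKDC and XRCC5. The 2 closest divergent starts among them are shown because the paired genes are compared with each other. These stretches are 30 bases long, 5′ to 3′, and the capitals mark the first base of each gene in GENCODE 29. The stretch for TP53BP1, which passed the test in 2 comparisons, runs over the 162 bases before its GENCODE start, and its capitals mark GC boxes on either strand.
LIG4 and ABHD13, chr13:108218359-108218388, minus strand, the left capital being the start of ABHD13: gagcatgcgCagaagccgctGccagtgagc
XRCC6 and DESI1, chr22:41621093-41621122, plus strand, the left capital being the start of DESI1: tttGcgcatgtgcttacagtcctgacGtag
TP53BP1, chr15:43510729-43510890, minus strand: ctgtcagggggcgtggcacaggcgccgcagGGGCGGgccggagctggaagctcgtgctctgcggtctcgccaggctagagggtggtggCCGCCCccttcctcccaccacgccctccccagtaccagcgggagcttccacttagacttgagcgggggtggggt

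The letters of 5 motifs were searched in the 7 windows on both strands, and no matches of different motifs overlapped. The GC box GGGCGG stood in 6 of the 7 windows, against 45.0% of 35116 RefSeq windows. CCAAT stood in 5 of 7 (34.6% of all windows), the ETS core CCGGAAG in XRCC4, LIG4 and TP53BP1 (10.3%), GCATGCGC, a part of the NRF1 motif, in XRCC6 and LIG4 (3.05%), and TATAAA in DCLRE1C alone (11.5%). The match in LIG4 lies in the 30 bases printed and ends on the first base of ABHD13. These are matches of letters, with no measurement of binding.

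Per length, the 3 DNA-PK subunits were the most abundant of the 9 transcripts in every group. PRKDC had group means of 38.7 to 54.6 CPM per kb of exon, XRCC5 of 52.3 to 63.7 and XRCC6 of 43.9 to 58.5. The order of the other 6 differed between groups. TP53BP1 had group means of 4.64 (SW480) to 11.98 (PEO4 control) CPM per kb, DCLRE1C of 3.49 to 4.74 and LIG4 of 1.22 to 4.69. LIG4 at 4.69 CPM per kb was above DCLRE1C at 3.49 in SW480, and at 1.22 below XRCC4 at 2.03 in PEO4 control. XRCC4 lay at 1.67 to 2.03 CPM per kb, NHEJ1 at 0.789 to 1.02 and APLF at 0.737 to 0.966, and the ranges of these last 2 overlap.

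**Figure D1:**
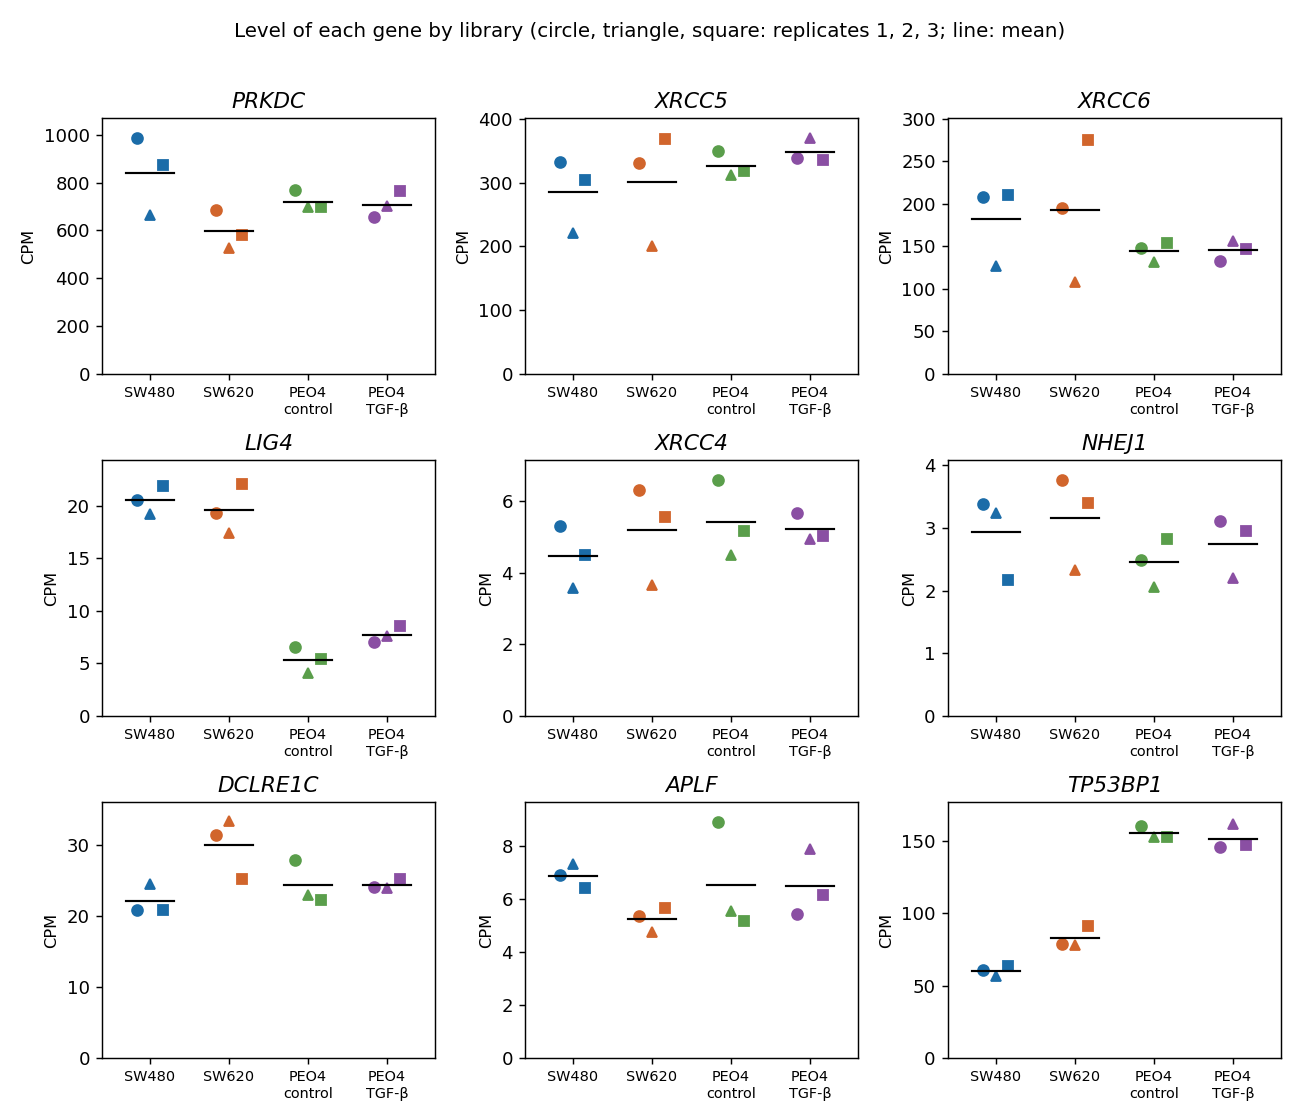
CPM of each of the 9 genes in the 12 libraries, with the 4 groups on the horizontal axis, 1 symbol per replicate and a line at the mean; every vertical axis starts at 0. LIG4 is lower in all 6 PEO4 libraries than in all 6 SW libraries, TP53BP1 is higher, and replicate 2 (triangles) of both SW lines is low for PRKDC, XRCC5, XRCC6 and XRCC4.

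SW620 and SW480 were compared first, the pair that the series title is about. TP53BP1 was 1.40-fold higher in SW620 and was the 1 gene of the 9 that passed the test, while 30.5% of the 20941 genes tested did (13.5% higher and 17% lower in SW620). The values of SW620 and SW480 did not overlap for 3 of the 9 genes (42.7% of all genes): TP53BP1 and DCLRE1C were higher in SW620 and APLF lower. By unadjusted p under 0.05, 2 of the 9 passed, TP53BP1 and DCLRE1C, against 40.7% of all genes. PRKDC, the target of NU-7441, had a mean of 597 CPM in SW620 against 841 in SW480 without passing. The test was edgeR's quasi-likelihood test with Benjamini-Hochberg adjustment over all genes tested and a threshold of 0.05. The median log2 fold change of the 9 genes was 0.10, beside 0.03 for all genes tested. In bulk RNA, fewer cells of a kind and less RNA per cell cannot be told apart, and the p-values measure the spread between these replicates.

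TGF-β gave no call among the 9 genes in PEO4 by edgeR's quasi-likelihood test, where 2.26% of 19064 genes passed (1.27% higher and 0.991% lower), and none by DESeq2 either. Values did not overlap for 1 of the 9, LIG4, against 19.9% of all genes (12.2% higher and 7.66% lower). LIG4 alone of the 9 had an unadjusted p under 0.05, a mark that 16.7% of genes passed. The other 8 had log2 fold changes between -0.10 and 0.12, and their median with LIG4 was -0.04, beside -0.02 for all genes.

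Between PEO4 control and the mean of SW480 and SW620, LIG4 was 0.263-fold, that is lower, and TP53BP1 2.18-fold higher in PEO4; 2 of the 9 genes thus passed, against 60.9% of 23457 genes (30.7% higher and 30.2% lower). The same 2 had an unadjusted p under 0.05, against 64.5% of genes, and the same 2 did not overlap, against 43.5%. Line, tissue of origin and medium cannot be told apart in this comparison. Scaling by total counts lowers the median log2 fold change of all genes here by 0.27 (from -0.07 to -0.34) and moves the share of calls that are higher in PEO4 from 50.4% to 38.8%; against that shift LIG4 and TP53BP1 kept their directions and passed. The 3 comparisons share libraries, so their values are given side by side.

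**Figure D2:**
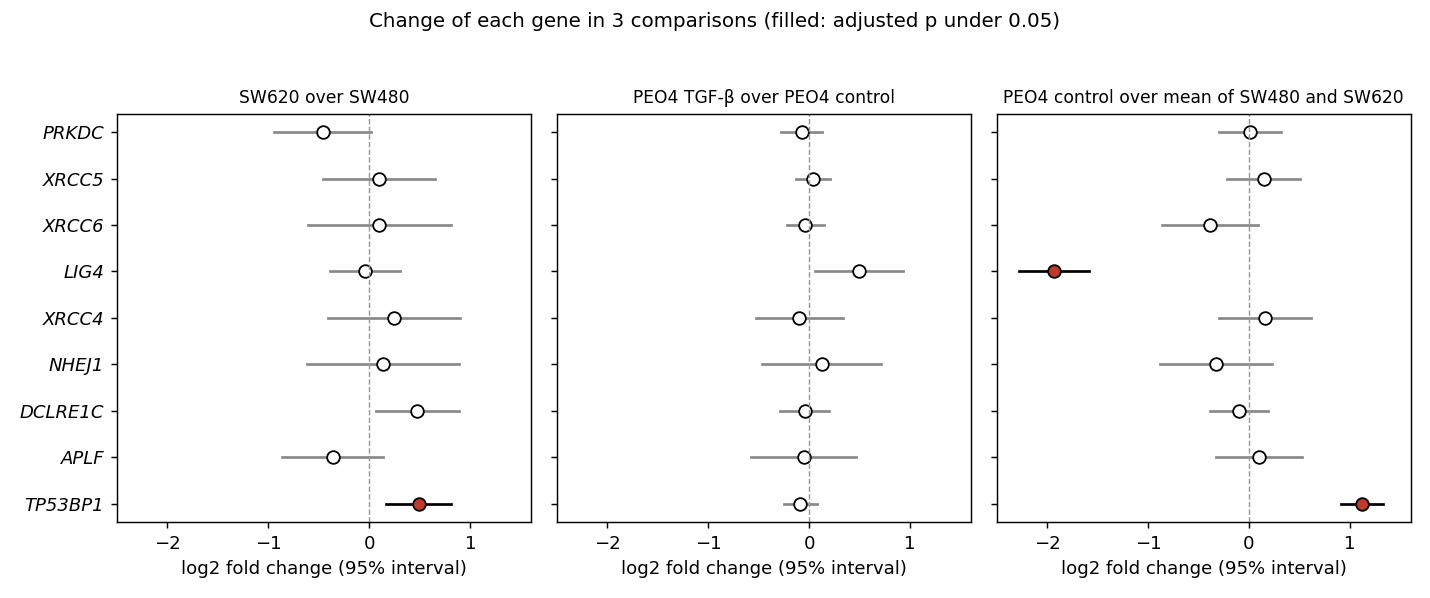
Log2 fold change of each of the 9 genes in the 3 comparisons (horizontal axis) with its 95% interval; filled points have an adjusted p under 0.05 by edgeR. TP53BP1 passes in the first and the last panel and LIG4 in the last, and no gene passes in PEO4 with TGF-β.

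PRKDC (ENSG00000253729, 8:47773108-47960183) encodes DNA-PKcs, the kinase that NU-7441 inhibits. It was measured at 986, 666 and 873 CPM in SW480 (replicates 1, 2 and 3) and at 685, 526 and 580 CPM in SW620. The 3 SW620 values lie low, but the groups overlap, since SW480 replicate 2 falls below SW620 replicate 1. The log2 fold change was -0.46 (SE 0.21, 95% interval -0.95 to 0.02, adjusted p = 0.137 by edgeR's quasi-likelihood test, n = 3 each), so a reduction to 0.519-fold and a ratio of 1.01 are both inside the interval. PRKDC passed where all 12 libraries shared 1 model (log2 fold change -0.48, adjusted p = 0.0326 by edgeR). It also passed with a replicate block, that is with replicate number in the model (-0.46, adjusted p = 0.00513 by edgeR). Whether equal numbers mark pairs is not given, and 10667 genes passed with that block, against 6385 in the main fit. PRKDC passed in 3 of 15 alternatives. It passed in 0 of 6 runs that left out 1 library, with adjusted p-values of 0.0992 to 0.505 by edgeR. Leaving out SW480 replicate 1 brought the log2 difference to -0.31. In the authors' deposited table the value is -0.47 with an adjusted p of 0.0727. Of 10 proliferation genes, 5 were lower in SW620 and none higher, beside 17% of all genes lower and 13.5% higher. MKI67 was among the 5 (log2 fold change -0.69, SE 0.19, adjusted p = 0.0205 by edgeR). PCNA (0.42) and CDK1 (0.43) leaned the other way without passing, and the list median was -0.77. The summed level of the 10 was 1006 to 1622 CPM in SW620 against 1630 to 2426 in SW480. Calls of these genes were not followed through the alternatives, and their part in the value of PRKDC was not tested.

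In PEO4, PRKDC stood at 768, 696 and 698 CPM in control medium and at 656, 704 and 765 CPM with TGF-β. The groups overlap throughout. The log2 fold change was -0.07 (SE 0.09), with a 95% interval for the fold of 0.826 to 1.09. Between control PEO4 and the SW mean it was 0.01 (SE 0.14, 95% interval for the fold 0.815 to 1.24), a direction that flips to -0.26 with total-count scaling and to -0.09 with a GC correction. The order of the group means, SW480, PEO4 control, PEO4 with TGF-β and SW620, holds no neighbours that were shown to differ beyond their spread.

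XRCC5 (ENSG00000079246), which encodes Ku80, ran at 332, 220 and 304 CPM in SW480 and at 331, 201 and 369 CPM in SW620. In PEO4 it ran at 350, 312 and 318 CPM in control medium and at 338, 370 and 336 with TGF-β. SW480 and SW620 overlap, as do both PEO4 groups, while all 3 SW480 values lie below the 3 values with TGF-β. The low values are replicate 2 of each SW line. XRCC6 (ENSG00000196419), which encodes Ku70, followed the same libraries, at 208, 127 and 211 CPM in SW480 and 194, 108 and 275 in SW620, and at 131 to 154 CPM in PEO4 control and 132 to 156 with TGF-β. Neither Ku gene passed in any of the 3 comparisons: between the SW lines the log2 fold changes were 0.10 (95% interval -0.46 to 0.65) for XRCC5 and 0.10 (-0.61 to 0.81) for XRCC6, with adjusted p-values of 0.810 and 0.848 by edgeR. With TGF-β in PEO4 the intervals were narrower, -0.13 to 0.21 and -0.22 to 0.14. XRCC6 in control PEO4 over the SW mean had a log2 fold change of -0.38 (SE 0.22, adjusted p = 0.149 by edgeR). It passed without SW620 replicate 2 (-0.52, adjusted p = 0.0166), with total-count scaling (-0.63, 0.00557) and with a GC correction (-0.47, 0.0327). In total XRCC6 passed in 4 of 20 alternatives there. Annotated pseudogenes of XRCC6 took 0 to 7 counts per library.

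For XRCC5 with XRCC6, the deviations of log2 CPM from the group means had a Pearson r of 0.96. It is taken over 12 libraries that differ in depth, and within a library both genes share its depth and scaling. The same figure was 0.73 for PRKDC with XRCC5, 0.62 for PRKDC with XRCC6 and 0.85 for XRCC4 with XRCC5, and these are descriptions only. It was -0.71 for DCLRE1C with XRCC6, so the libraries with low XRCC6 tended to have high DCLRE1C. These values pool the 4 groups and weigh the SW lines most. The SD of XRCC6 was 26.1% of its mean in SW480 and 43.3% in SW620. It was 8.17% in PEO4 control and 8.28% with TGF-β.

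The balance of the holoenzyme's transcripts was read as a ratio within each library, which no scaling of a whole library can change. A correction by GC can change it, as XRCC6 has 50.7% GC and XRCC5 44.2%, and none was applied to the ratios. PRKDC over the mean of XRCC5 and XRCC6 was 3.65, 3.83 and 3.40 in SW480 and 2.61, 3.40 and 1.80 in SW620. SW620 is the lower and the more variable line, and its replicate 2 lies as high as the lowest SW480 library. The difference of mean log2 ratios was -0.52, and the two-sided exact permutation test gave p = 0.2 (adjusted 0.667 over 4 tests), where 3 against 3 libraries cannot go below 0.1. In PEO4 the ratio was 3.08, 3.14 and 2.96 without and 2.79, 2.68 and 3.17 with TGF-β, a log2 difference of -0.09 (exact permutation p = 0.4). Between PEO4 control and the SW libraries, 43.5% of single genes did not overlap, and the share of gene pairs was not counted. The ratio of XRCC6 to XRCC5 was 0.537 to 0.745 in the 6 SW libraries and 0.391 to 0.483 in the 6 PEO4 libraries, which do not overlap. Its log2 differences were -0.08 in PEO4 (exact permutation p = 0.5) and -0.03 between SW lines (exact permutation p = 1).

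**Figure D3:**
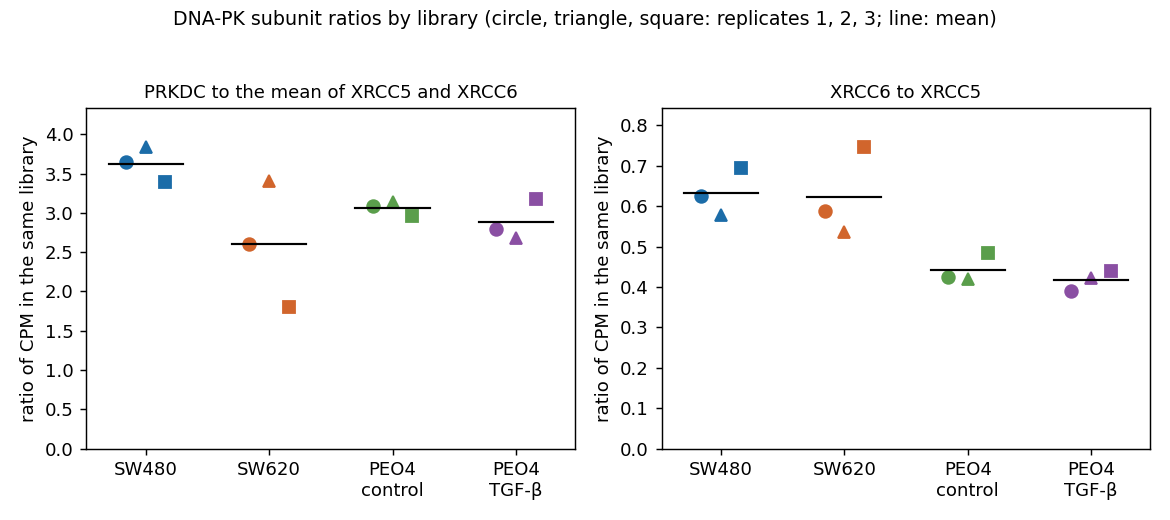
Ratio of PRKDC to the mean of XRCC5 and XRCC6 (left) and of XRCC6 to XRCC5 (right) in each of the 12 libraries, as ratios of CPM; symbols are replicates and lines are means. The left panel shows the spread of SW620 from 1.80 to 3.40, and the right panel the gap between the SW and PEO4 libraries.

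LIG4 (ENSG00000174405) encodes DNA ligase IV, the enzyme that seals the break. Its level was 20.6, 19.2 and 21.9 CPM in SW480, 19.3, 17.4 and 22.1 in SW620, 6.53, 4.05 and 5.42 in PEO4 control and 7.05, 7.60 and 8.54 in PEO4 with TGF-β. The SW lines overlap fully, and all 6 PEO4 libraries lie below all 6 SW libraries. Control PEO4 was lower than the SW mean by a log2 fold change of -1.93 (SE 0.16, fold 0.263, 95% interval 0.207 to 0.335, adjusted p = 1.00e-07 by edgeR), and this passed in 20 of 20 alternative settings. Values that do not overlap and are lower in PEO4 were seen for 20.2% of all genes. Between the SW lines the log2 fold change was -0.04 (95% interval -0.39 to 0.31, adjusted p = 0.875 by edgeR).

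All 3 LIG4 values with TGF-β were above all 3 control values, as in 12.2% of genes. The log2 fold change was 0.49 (SE 0.19, unadjusted p = 0.0291, adjusted p = 0.239 by edgeR), and adjusted p-values over 15 alternatives ran from 0.0513 to 0.599. The authors' deposited table gives 0.49 with an adjusted p of 0.261. LIG4 counts in PEO4 were low, 71 at the least.

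XRCC4 (ENSG00000152422), which stabilises ligase IV, lay at 5.30, 3.58 and 4.51 CPM in SW480, 6.32, 3.66 and 5.57 in SW620, 4.51 to 6.59 in PEO4 control and 4.96 to 5.66 with TGF-β. NHEJ1 (ENSG00000187736), which encodes the XRCC4-like factor XLF, lay at 2.18 to 3.38 CPM in SW480, 2.32 to 3.76 in SW620, 2.05 to 2.82 in PEO4 control and 2.20 to 3.11 with TGF-β. All groups overlap for both genes, and neither passed in any comparison. Their SW log2 fold changes were 0.24 (95% interval -0.41 to 0.90) and 0.13 (-0.62 to 0.88), and the 95% interval of the fold for NHEJ1, with its 36 to 78 counts, was 0.650 to 1.85. Reads of NHEJ1 are uncertain, since 2034 of its exon bases are also exon of AC068946.1 on the same strand. Where LIG4 was lower in PEO4 than in the SW lines, the log2 fold changes of its partners were 0.16 (SE 0.21) for XRCC4 and -0.33 (SE 0.26) for NHEJ1. The difference between genes was not tested.

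DCLRE1C (ENSG00000152457) encodes Artemis, the nuclease that DNA-PKcs activates. It was measured at 20.8, 24.5 and 20.8 CPM in SW480 and at 31.4, 33.3 and 25.2 in SW620. The groups do not overlap, which holds with higher values in SW620 for 19.1% of all genes. The log2 fold change was 0.47 (SE 0.18, fold 1.39, adjusted p = 0.0813 by edgeR). It missed the threshold here and passed without SW620 replicate 3 (log2 fold change 0.59, adjusted p = 0.0244 by edgeR). It also passed with all 12 libraries in 1 model (adjusted p = 0.0326 by edgeR) and with a replicate block (0.47, adjusted p = 0.00585 by edgeR). In total DCLRE1C passed in 4 of 15 alternatives, and in 1 of the 6 that left out 1 library. PEO4 ran from 22.2 to 27.9 CPM in control medium and from 23.9 to 25.1 with TGF-β, a log2 fold change of -0.04 (95% interval -0.29 to 0.20). DCLRE1C shares 159 exon bases with SUV39H2 on the other strand, and its pseudogene DCLRE1CP1 took 0 to 3 counts per library.

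APLF (ENSG00000169621), the scaffold that binds Ku and XRCC4, lay at 6.91, 7.33 and 6.42 CPM in SW480 and at 5.35, 4.75 and 5.67 in SW620. The SW620 values are all lower, as in 23.5% of genes, and the log2 fold change was -0.36 (SE 0.22, adjusted p = 0.260 by edgeR). In PEO4 it lay at 8.90, 5.54 and 5.16 CPM without and 5.44, 7.89 and 6.14 with TGF-β, fully overlapping. APLF shares 1628 exon bases with PROKR1 on the same strand, and PROKR1 had 2 counts at the most.

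TP53BP1 (ENSG00000067369) encodes 53BP1. It stood at 60.8, 56.5 and 63.5 CPM in SW480, 79.0, 78.3 and 91.5 in SW620, 161, 153 and 153 in PEO4 control and 146, 162 and 148 with TGF-β. The order SW480, SW620, PEO4 has no overlap between neighbouring lines, and the PEO4 groups overlap each other. SW620 exceeded SW480 by a log2 fold change of 0.49 (SE 0.14, 95% interval for the fold 1.12 to 1.75, adjusted p = 0.0295 by edgeR). The direction held in every alternative run, but the call was lost without SW480 replicate 1 (adjusted p = 0.124), 2 (0.106) or 3 (0.136), without SW620 replicate 1 (0.0753) or 3 (0.0649), and with no low-count filter (0.143), all by edgeR. The authors' deposited table has it at 0.49 with an adjusted p of 0.00874, among 34.2% of 20648 listed genes with an adjusted p under 0.05.

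Control PEO4 exceeded the SW mean by a log2 fold change of 1.12 in TP53BP1 (SE 0.10, fold 2.18, 95% interval 1.88 to 2.52, adjusted p = 1.40e-07 by edgeR), which passed in 20 of 20 alternatives. TGF-β brought a log2 fold change of -0.09 (95% interval -0.25 to 0.07, adjusted p = 0.593 by edgeR). Exons of TUBGCP4, a subunit of the γ-tubulin complex read from the other strand, cover 3732 bases of TP53BP1's exons. TUBGCP4 was higher in SW620 by a like amount (log2 fold change 0.52, SE 0.14, adjusted p = 0.0238 by edgeR), whereas between PEO4 control and the SW mean it stood at 0.06 (SE 0.10). Whether counting used strand is not given in the sources used here, so the reads of the shared bases cannot be told apart. Like TP53BP1, TUBGCP4 kept its SW call in 1 of 6 leave-one-out runs, that without SW620 replicate 2, with adjusted p-values of up to 0.111 in the others.

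The rest of the pathway was followed in 47 genes on 7 lists, of which 44 could be tested. Between SW620 and SW480, 10 passed (22.7%, beside 30.5% of all genes), 5 in each direction. SHLD2, a subunit of the shieldin complex that acts downstream of 53BP1 (listed as FAM35A), was higher in SW620 by a log2 fold change of 0.83 (SE 0.15, adjusted p = 0.00308 by edgeR), and NBN, the signalling subunit of the MRE11-RAD50-NBN complex (MRN), by 0.95 (SE 0.19, adjusted p = 0.00541). SHLD2 stood at 45.5, 40.0 and 38.8 CPM in SW480 against 79.1, 64.7 and 72.1 in SW620. These 2 genes passed in 15 of 15 alternatives. The nuclease MRE11 (0.48), the RecQ helicase WRN (0.56) and RNF169, which competes with 53BP1 for ubiquitylated chromatin (0.55), were also higher.

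Lower in SW620 were POLQ, the polymerase of alternative end joining (0.305- to 0.818-fold by its 95% interval), and XRCC1, the scaffold that brings DNA ligase III (log2 fold change -0.84, SE 0.17), with adjusted p-values of 0.0395 and 0.00591 by edgeR. POLQ stood at 60.5, 72.6 and 53.8 CPM in SW480 and at 29.8, 43.3 and 17.7 in SW620. MAD2L2, the shieldin partner REV7 (-0.68), PARP3 (-0.53) and TRRAP, a kinase-dead relative of DNA-PKcs (-0.74), passed as well. On the 53BP1 list the 3 genes that passed thus split, SHLD2 and RNF169 up and MAD2L2 down, and the list median was -0.09. Leaving out 1 library took the count of 10 to between 2 (without SW620 replicate 1, SHLD2 and NBN) and 13 (without SW620 replicate 2); it was 3 without SW480 replicate 1 or 3 and 5 without SW480 replicate 2. XRCC1 lost its call only without SW620 replicate 1 (adjusted p = 0.0505 by edgeR). The calls of WRN, RNF169, MRE11, PARP3, MAD2L2, TRRAP and POLQ were each lost without SW480 replicate 1, SW480 replicate 3 and SW620 replicate 1, with adjusted p-values of up to 0.217 by edgeR. POLQ did not pass with total-count scaling either.

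TGF-β moved none of the 44 genes in PEO4 past the threshold by edgeR, and 5 of them had an unadjusted p under 0.05 (16.7% of all genes did). RBBP8, which encodes the resection factor CtIP and is named here after its values were seen, had the lowest log2 fold change, -0.70 (SE 0.16, adjusted p = 0.0636 by edgeR). Its levels were 144, 186 and 117 CPM without and 92.3, 103 and 90.7 with TGF-β, which do not overlap. It was the 1 gene that passed with DESeq2, with total-count scaling and with no low-count filter, and when control replicate 1 or 3 was left out.

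PEO4 control and the SW mean differed in 31 of the 44 genes (70.5%, beside 60.9% of all genes), 12 higher and 19 lower in PEO4. The MRN complex split: NBN (log2 fold change 1.71, SE 0.13) and RAD50 (1.05, SE 0.12) were higher in PEO4, and MRE11 (-0.93, SE 0.10) lower. MRE11 was at 32.5 to 33.1 CPM in PEO4 control against 48.6 to 80.0 in the SW libraries. Higher in PEO4 were also RBBP8 (1.09), NUDT16L1, an inhibitor of 53BP1 (1.05), the kinase SMG1 (1.03) and POLL, an end-joining polymerase (0.91), while TELO2, TTI2, POLM, PARP2, XRCC1 and RNF169 were above the SW mean by 0.42 to 0.65. Of these, POLM, TELO2, TTI2, PARP2 and XRCC1 did not pass with total-count scaling, and POLM, TELO2 and XRCC1 did not pass with a GC correction.

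Lower in PEO4 were PARP1, the break sensor (log2 fold change -1.59, SE 0.21), the flap nuclease FEN1 (-1.15), MAD2L2 (-1.14) and PAXX, the XRCC4 paralogue that binds Ku (-1.07, SE 0.14). The kinases ATM (-0.71) and ATR (-0.64) were lower too, as was TRRAP (-0.49), while PRKDC stood at 0.01. PAXIP1, SHLD1, SHLD2, RNF168, H2AFX and USP28 of the 53BP1 list, TTI1 and RUVBL1 of the kinase chaperone, LIG3 and POLQ, and RAG1 with 10 to 46 counts in PEO4 control made up the rest, from -0.32 for USP28 to -1.69 for RAG1. USP28 lost its call without any 1 library other than SW480 replicate 2 or SW620 replicate 2 (adjusted p up to 0.173 by edgeR), POLQ without PEO4 control replicate 3 (0.0826), and POLM (up to 0.110) and TTI2 (up to 0.0725) without PEO4 control replicate 1 or 3. The lymphoid end-joining polymerase gene DNTT had 0 counts in all 12 libraries, which allows up to 0.142 to 0.173 CPM, and RAG2 had 6 counts at the most.

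**Figure D4:**
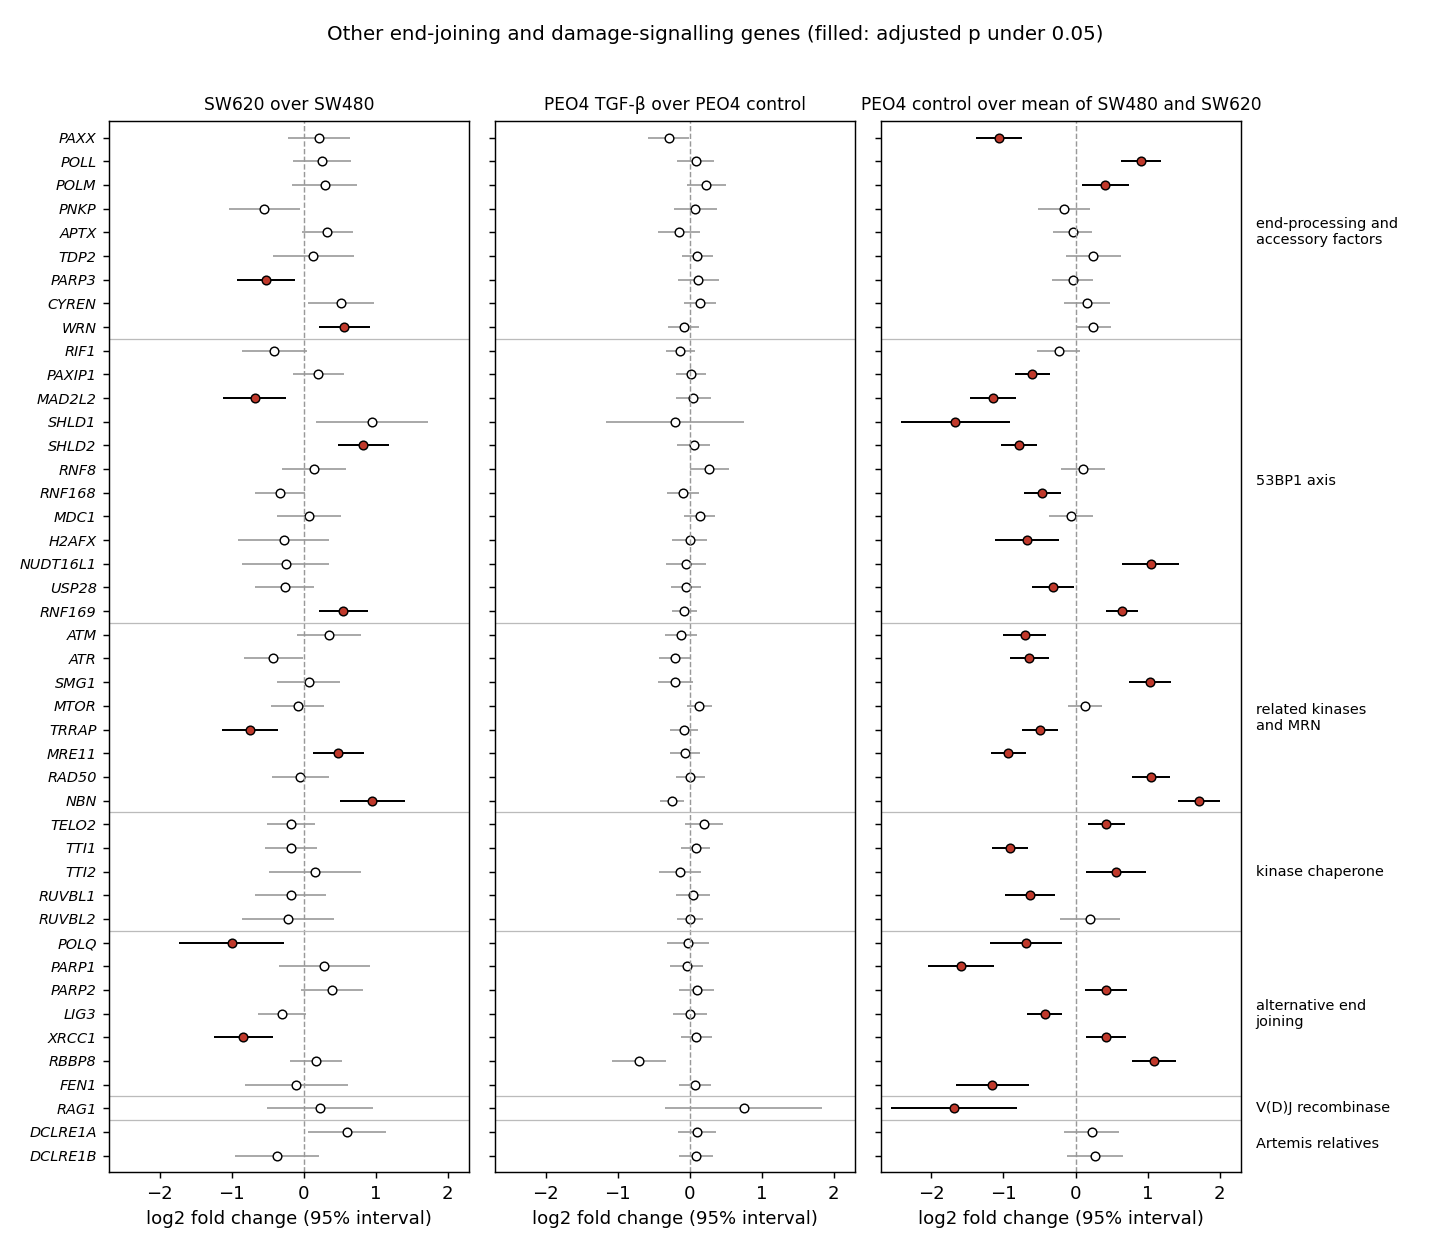
Log2 fold change with 95% interval of the tested genes of 7 pathway lists in the 3 comparisons, on a common horizontal axis; filled points have an adjusted p under 0.05 by edgeR, and list names stand at the right. Calls go both ways in the left and right panels (5 and 5, 12 and 19) and the middle panel has none.

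The 6 divergent partners were set beside their end-joining genes, and no difference between the genes of a pair was tested. PRKDC and MCM4, a subunit gene of the replicative helicase, have starts 2 bases apart. MCM4 was at 105 to 118 CPM in PEO4 control and at 207 to 392.4 in the SW libraries (log2 fold change -1.42, SE 0.18, adjusted p = 6.77e-06 by edgeR), with PRKDC at 0.01. MAP1A was lower in PEO4 (-1.19, SE 0.23) while TP53BP1 was higher (1.12), and between the SW lines both were higher in SW620 (0.87 and 0.49). DESI1 was higher in SW620 by 0.91 (SE 0.17, adjusted p = 0.00389 by edgeR, in 15 of 15 alternatives) while XRCC6 was at 0.10. In PEO4 control over the SW mean, DESI1 was lower (log2 fold change -0.91, SE 0.13, adjusted p = 1.94e-05 by edgeR), with XRCC6 at -0.38 without passing. For LIG4 both genes of the pair passed and were lower in PEO4: ABHD13 was at 11.1 to 14.2 CPM in PEO4 control and at 14.96 to 27.4 in the SW libraries, a log2 fold change of -0.81 (SE 0.18, adjusted p = 0.00108 by edgeR). Over the 12 libraries, the Pearson r of log2 CPM was 0.88 for LIG4 with ABHD13, 0.81 for XRCC4 with TMEM167A, 0.55 for XRCC6 with DESI1, 0.39 for APLF with FBXO48, 0.20 for PRKDC with MCM4 and -0.65 for TP53BP1 with MAP1A, as descriptions over libraries of 3 lines. No FBXO48 or TMEM167A value passed. MAP1A lost its SW call without SW480 replicate 1, 2 or 3 or SW620 replicate 1 (adjusted p up to 0.154 by edgeR).

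**Figure D5:**
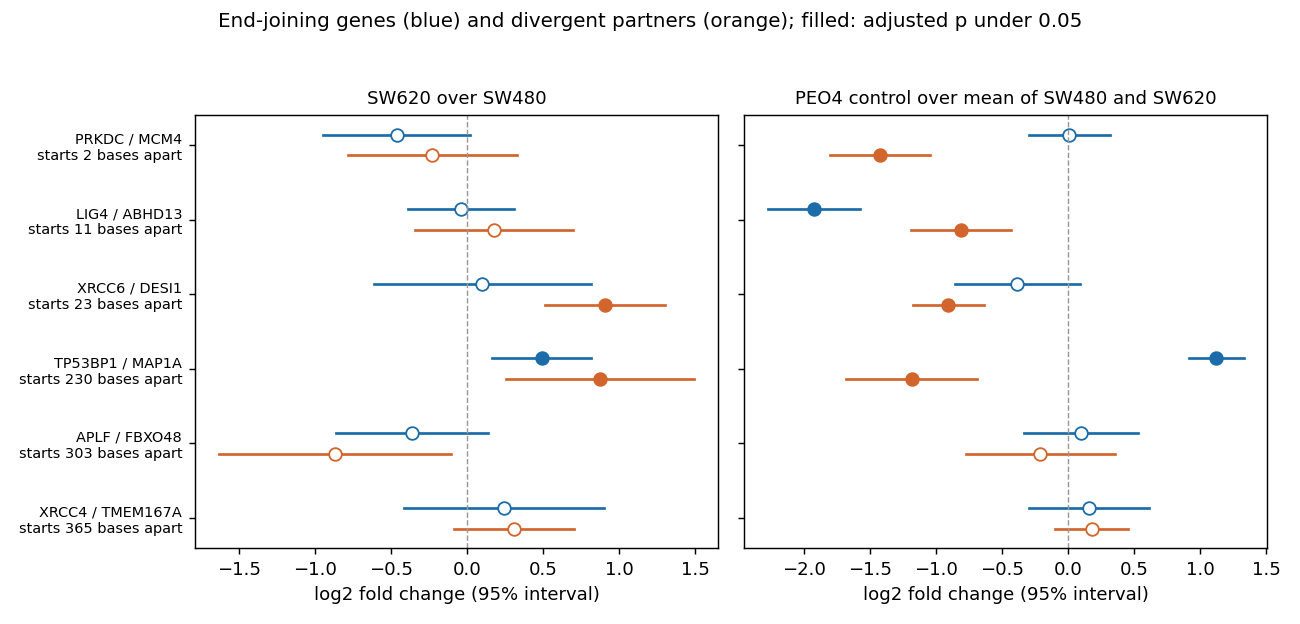
Log2 fold change with 95% interval of 6 end-joining genes (blue) and of the gene that starts beside each on the other strand (orange), for SW620 over SW480 (left) and PEO4 control over the SW mean (right); filled points have an adjusted p under 0.05 by edgeR. On the right, the LIG4 pair lies on 1 side of 0 and the TP53BP1 pair on opposite sides.

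Among 10406 genes with a mean of at least 10 CPM, those whose log2 CPM followed PRKDC most closely over the 12 libraries were MELK, a mitotic kinase gene (Pearson r 0.92), RC3H2 (0.91), PURB (0.90), RYK (0.90) and DCUN1D1 (0.90). The same r was 0.40 for XRCC5 and 0.34 for XRCC6. These are descriptions over libraries that share lines, and all genes of a library share its depth.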

How the data were processed

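The authors deposited whole-number counts per gene for 12 libraries of ribosome-depleted total RNA. Per the submitters' processing notes, Trimmomatic 0.36, STAR 2.5.2b, featureCounts, Subread 1.5.2, DESeq2 and GRCh38 were named, without role or order. Annotation and use of strand are not given in the sources used here. The deposited tables of differential expression also hold, per the file headers, a signal per library (counts divided by a size factor, checked on the values), a log2 fold change and a p-value before and after adjustment; these were used for the sentences that name the authors' deposited table.

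The counts were tested with edgeR 4.0.16 in R 4.3.3 (filterByExpr, TMM factors, glmQLFit and glmQLFTest, two-sided, Benjamini-Hochberg over all genes tested, threshold 0.05). Each labelled pair was fitted on its own 6 libraries, and PEO4 control against the mean of the SW lines in 1 fit of 12. The standard error is the log2 fold change over the square root of F, and intervals are at 95%. Levels are CPM on TMM-scaled totals, a floor of 3 counts being worth 0.142 to 0.173 CPM; floors cover counting error only. Log2 CPM used a prior count of 2, and log2 ratios were compared by exact permutation tests. Of the gene IDs, 56898 of 57500 were found in GENCODE 29, although counting may have used another annotation. Alternatives were DESeq2 1.42.0, other scalings and filters, a replicate block, a joint model of 12 libraries, leaving out each library, and, chosen after seeing the data, a GC correction (span 0.3).

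The 9 genes and all lists were chosen with earlier results of these data known. Named besides the 9 genes are list genes past the threshold, genes with a start within 1000 bases on the other strand or with overlapping exons, the 5 genes most like PRKDC, and CDX2, PAX8 and MKI67. PTPRC, SOX17, FOLR1, PCNA, CDK1, DNTT, RAG2 and DCLRE1CP1 were named after their values were seen. Libraries of equal replicate number went together in part. Correlations of deviations between them were 0.016, 0.67 and 0.57 in the SW lines and 0.29, -0.15 and 0.48 in PEO4. SW620 replicate 2 with SW480 replicate 3 had -0.63, and SW620 replicate 3 with SW480 replicate 2 had -0.58. Deviations within a group cancel out, so these values are not independent. The main fits hold no replicate block.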

Additional observations from a re-analysis of the deposited data

How the results depend on the processing

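LIG4 and TP53BP1 kept their direction and call between PEO4 control and the SW mean in 20 of 20 alternatives, and with TGF-β none of the 9 genes passed in 15 of 15. Between the SW lines, TP53BP1 kept its direction in 15 of 15 and its call in 9. The number of the 9 genes past the threshold there was 0 without the low-count filter and 3 with all 12 libraries in 1 model. For the pathway lists it was 6 and 16. With TGF-β, the pathway count was 1 with DESeq2, total counts or no low-count filter, and the count over all genes was 967 with DESeq2, 1457 with no low-count filter and 165 with 12 libraries. Requiring 10 counts in every library, which leaves fewer genes to test, gave 9455 calls between PEO4 control and the SW mean. The cause of this and of the other changes was not tested.

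The replicate numbers went together in part. In the SW lines replicates 2 and 3 correlated best with their own number (0.67 and 0.57). SW620 replicate 1 did not (0.016 against 0.27), and whether equal numbers mark pairs is not given. With the replicate block, SW calls were 3 of the 9 genes (TP53BP1, PRKDC with adjusted p = 0.00513 and DCLRE1C with 0.00585 by edgeR), 23 pathway genes and 10667 genes in all, and TGF-β calls were 0, 1 and 2102. With the GC correction and the replicate block together they were 3, 27 and 11328, and 0, 1 and 2096.

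Leaving out 1 library gave 0 to 1 of the 9 genes, 2 to 13 pathway genes and 4253 to 7419 genes in all between the SW lines. It gave 0 to 1 pathway gene and 72 to 1080 genes with TGF-β, and 12767 to 15682 genes between PEO4 control and the SW mean.

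Each reversal was of a gene or ratio that had not passed, as reported, in that same comparison. LIG4 between the SW lines was 0.0010 with total counts. APLF with TGF-β was 0.015 with the GC correction and 0.028 with the block added. Between PEO4 control and the SW mean, total counts gave -0.26 for PRKDC, -0.11 for XRCC5, -0.11 for XRCC4 and -0.19 for APLF. The strict filter gave -0.051 for PRKDC, the GC correction -0.092 for PRKDC and -0.075 for APLF, and the GC correction with the block -0.087 and -0.075. Over leave-one-out runs, SW log2 values ran from -0.12 to 0.065 for LIG4, -0.058 to 0.34 for NHEJ1, -0.063 to 0.35 for XRCC5, -0.23 to 0.42 for XRCC6 and -0.17 to 0.070 for the ratio of XRCC6 to XRCC5. TGF-β values ran from -0.20 to 0.22 for APLF, -0.10 to 0.054 for DCLRE1C, -0.18 to 0.055 for XRCC4 and -0.073 to 0.016 for XRCC6. Against the SW mean they ran from -0.047 to 0.096 for PRKDC and -0.17 to 0.26 for APLF. Low counts limit NHEJ1, XRCC4, APLF and, in PEO4, LIG4.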
